A study of Mus musculus with 9 samples.

Results

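Leukocyte adhesion genes of vessel and tubule were followed in mouse kidney: Sele, Selp, Ackr1, Madcam1, Icam1, Vcam1, Icam2 and F11r. They were taken by gene symbol, 8 of the 34310 genes in the deposited table. White blood cells leave a vessel in steps. Selectins on the endothelium slow them, chemokines held on the vessel wall activate their integrins, immunoglobulin-type ligands then hold them fast, and junction molecules let them pass. In the kidney some of these molecules also belong to the tubule: injured tubule cells can carry ICAM-1 and VCAM-1, and the tight-junction protein encoded by F11r (JAM-A) is a normal part of epithelium.

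The study sequenced kidney RNA from 9 mice in 3 groups of 3. The groups were mice given lipopolysaccharide with thymosin β4 (LPS+Tβ4), mice given lipopolysaccharide alone (LPS) and mice given saline. Lipopolysaccharide is the endotoxin of Gram-negative bacteria, used to model sepsis-associated kidney injury, and thymosin β4 is a small peptide that binds actin. Strain, sex, age, dose, route and time of sampling were not known from the labels. Levels are the authors' FPKM, fragments scaled for transcript length and library size, so that genes can be set side by side. Each change is a log2 ratio of groups, with its SE, by edgeR's quasi-likelihood test of the counts in all 9 libraries. A gene passed where its adjusted p (Benjamini-Hochberg, over 15015 tested genes) was under 0.05. The tested genes had a mean of at least 0.5 FPKM over the 9 libraries, and 7 of the 8 adhesion genes met that limit. Madcam1, at 0.366 FPKM, did not. Sele, Selp and Ackr1 stood below 0.5 FPKM in every saline library and met the limit only through the treated groups, so their number adds no support to a rise.

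Library totals were 60.2 to 62.0 M counts in LPS+Tβ4, 53.0 to 58.1 M in LPS and 56.6 to 59.5 M in saline, and all 12 proximal tubule markers were detected in every library. Those markers summed to 12200, 11000 and 4690 CPM in LPS+Tβ4, 5030, 12500 and 17800 CPM in LPS and 27100 to 29100 CPM in saline. Against saline 8 of the 12 fell in LPS+Tβ4 (median -2.54) and 9 fell in LPS (median -2.53). Among all tested genes 11.8% and 22.2% were lower in these comparisons. The part of this loss of proximal tubule transcripts in the members' levels was not tested. The libraries differed in other tissue. Summed transcripts of 5 uroplakin genes, which mark the urothelium of the renal pelvis, were 1.03, 0.758 and 65.9 CPM (counts scaled to library size) in LPS+Tβ4 replicates 1, 2 and 3. They were 55.1, 46.2 and 0.93 CPM in the LPS replicates and 2.13, 87.0 and 74.5 CPM in the saline replicates. LPS+Tβ4 replicate 3, LPS replicates 1 and 2 and saline replicates 2 and 3 were thus rich in urothelial transcripts, and the other 4 libraries were poor. Neural transcripts (9 genes) summed to 519 to 626 CPM in LPS+Tβ4, 31.4 to 185 CPM in LPS and 62.7 to 70.0 CPM in saline. Erythroid transcripts (5 genes) summed to 182 to 263 CPM in LPS+Tβ4, 536 to 707 CPM in LPS and 547 to 693 CPM in saline. In bulk RNA, fewer cells of a type and less RNA per cell cannot be told apart.

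The start regions of 3 members are shown, an endothelial gene (Sele), a gene shared by endothelium and tubule (Icam1) and an epithelial junction gene (F11r), with the letters that factors of the inflammatory response are known to bind. Each region runs from 250 bases before to 50 bases after the RefSeq start site (RefSeq, GRCm38.p6). Capitals mark matches on either strand to GGNNNTTCC, a pattern met by many NF-kB sites, to TGACTCA, the site of AP-1, a factor downstream of MAPK signalling, or to TATAAA, the TATA box.

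Sele, chr1:164047984-164048283, plus strand: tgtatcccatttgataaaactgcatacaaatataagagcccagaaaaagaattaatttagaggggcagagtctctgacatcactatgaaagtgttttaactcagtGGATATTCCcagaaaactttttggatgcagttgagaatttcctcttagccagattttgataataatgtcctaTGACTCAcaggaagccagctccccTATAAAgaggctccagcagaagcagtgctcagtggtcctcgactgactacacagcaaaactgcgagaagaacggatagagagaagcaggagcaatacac
Icam1, chr9:21015690-21015989, plus strand: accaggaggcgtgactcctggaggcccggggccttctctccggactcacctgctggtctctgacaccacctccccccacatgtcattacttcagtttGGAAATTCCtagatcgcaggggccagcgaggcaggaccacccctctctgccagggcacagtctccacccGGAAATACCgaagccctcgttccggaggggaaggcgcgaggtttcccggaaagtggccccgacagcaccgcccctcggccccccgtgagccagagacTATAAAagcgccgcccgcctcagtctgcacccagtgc
F11r, chr1:171437311-171437610, plus strand: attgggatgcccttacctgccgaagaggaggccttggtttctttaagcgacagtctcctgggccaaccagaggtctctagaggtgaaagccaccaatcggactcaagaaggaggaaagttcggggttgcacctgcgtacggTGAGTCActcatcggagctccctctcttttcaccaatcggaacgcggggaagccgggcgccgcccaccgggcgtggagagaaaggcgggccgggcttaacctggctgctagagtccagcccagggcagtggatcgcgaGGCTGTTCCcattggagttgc

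Start regions were matched for 6 of the 8 members (not for Icam2 and Vcam1). All 6 held GGNNNTTCC on 1 strand or the other, as did 18.4% of 27025 start regions of the same length. TGACTCA was found in Sele and F11r, and in 5.17% of all start regions. TATAAA was found in Sele and Icam1, and in 14.2%. In Icam1 the match that begins at position -153 from the start site reads on both strands, and another begins at -84. TATAAA begins at -49 in Sele and at 14 in Icam1, counted from the RefSeq start site. For Icam1 that site lies upstream of the gene start in the authors' table, and for Sele the 2 are the same. The letters were chosen with these sequences in view, and a match describes the window only.

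The members spanned a wide range of levels, and their order differed between groups. In LPS+Tβ4 kidneys the order of mean levels was F11r, Icam1, Vcam1, Icam2, Ackr1, Selp, Sele and Madcam1. The ranges of F11r, Icam1 and Vcam1 stood apart from each other and from the rest, whereas those from Icam2 to Sele overlapped. In LPS kidneys the order was F11r, Icam1, Vcam1, Icam2, Selp, Madcam1, Sele and Ackr1. There the range of Icam2 overlapped those of Vcam1, Selp, Madcam1 and Sele, and the ranges of Madcam1, Sele and Ackr1 overlapped each other. In saline kidneys it was F11r, Icam1, Icam2, Vcam1 and then Sele, Selp, Madcam1 and Ackr1, which were at or close to 0 and overlapped in their ranges. F11r held 52.0% to 62.5% of the summed FPKM of the 8 genes in LPS+Tβ4, 49.0% to 69.7% in LPS and 81.8% to 84.3% in saline. Vcam1 held 5.04% to 12.3% in LPS+Tβ4, 1.71% to 2.85% in LPS and 1.86% to 2.59% in saline. The shares of Vcam1 in LPS and in saline overlapped, and every LPS+Tβ4 share was above them.

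**Figure D1:**
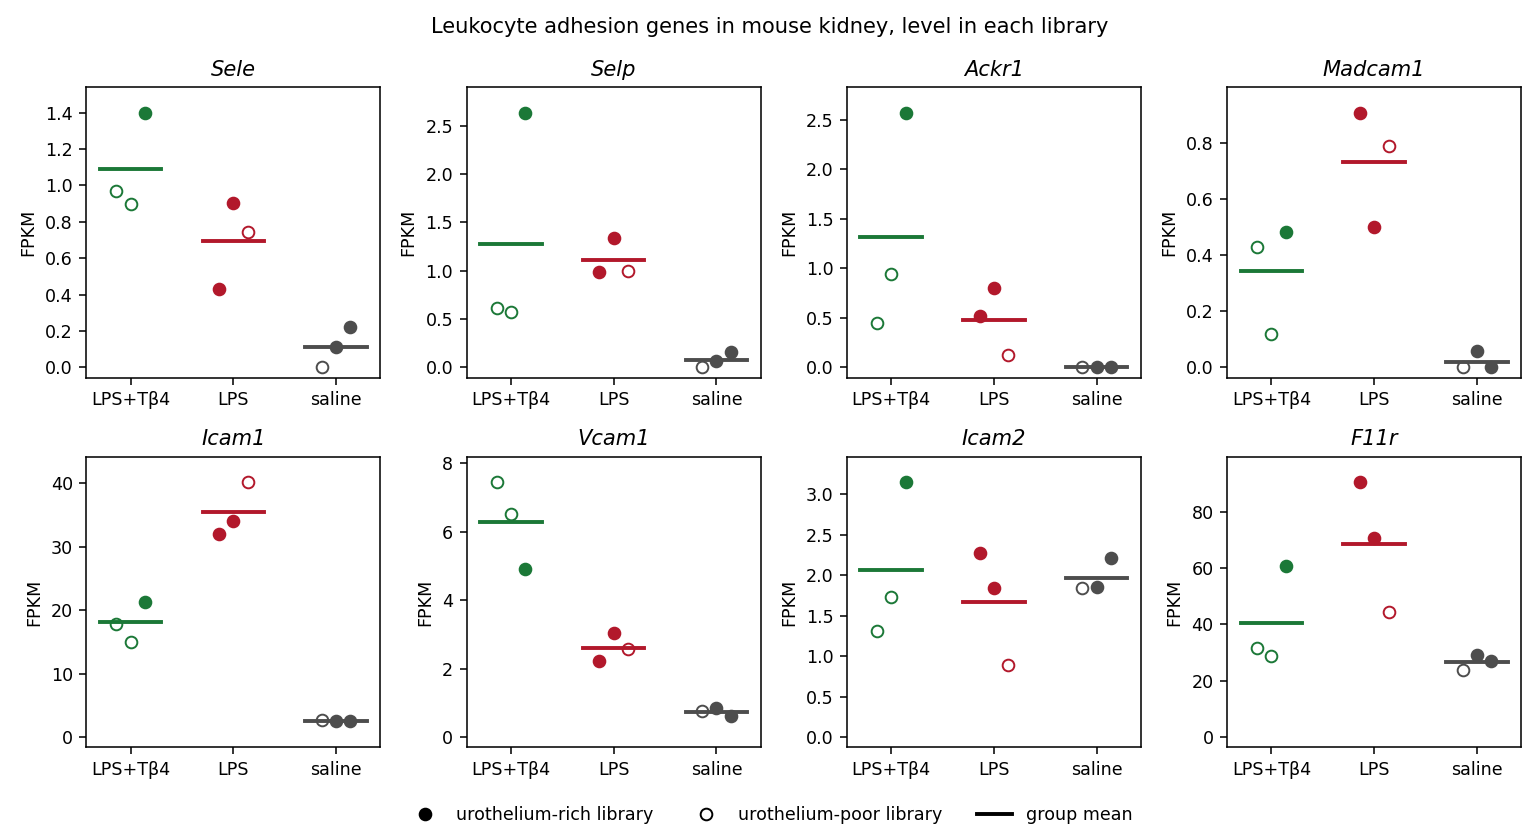
Level of each adhesion gene (FPKM, y axis) in LPS+Tβ4, LPS and saline kidneys (x axis), 3 mice each; points are libraries, bars are group means, and filled points are libraries rich in urothelial transcripts. Icam1 is highest in LPS (32.0 to 40.1 FPKM), Vcam1 is highest in LPS+Tβ4 (4.90 to 7.44 FPKM), and the 4 genes of the top row are at or near 0 in saline.

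Of the 4 members with a mean of at least 0.5 FPKM in saline, Icam1, Vcam1 and F11r rose in LPS against saline, and Icam2 did not pass. Over all tested genes 20.9% passed as higher and 22.2% as lower. Of the members that met the limit only through the treated groups, Selp and Ackr1 passed as higher and Sele did not pass. The LPS libraries all lay above the saline libraries for Icam1, Vcam1 and F11r, and overlapped them for Icam2. They also lay above for Sele, Selp, Ackr1 and Madcam1, which were at or near 0 in saline and whose number adds no support to a rise. Ranges did not overlap, in either direction, for 51.9% of tested genes.

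In LPS+Tβ4 against LPS, Icam1 passed as lower and Vcam1 as higher, and the other 5 tested members did not pass. Over all tested genes 4.5% passed as higher and 2.33% as lower. Ranges did not overlap for 3 members, Vcam1 being higher and Icam1 and Madcam1 lower, and for 24.7% of tested genes. Both calls depended on the libraries fitted. With the 6 libraries compared fitted alone neither gene passed. Without any single saline library or LPS replicate 3, Icam1 alone passed, and without LPS replicate 2, LPS+Tβ4 replicate 1 or LPS+Tβ4 replicate 2 the number passing was 0.

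Of the 4 members expressed in saline at that limit, Icam1 and Vcam1 passed as higher in LPS+Tβ4 than in saline, and Icam2 and F11r did not pass. Over all tested genes 12.3% passed as higher and 11.8% as lower. Of the other tested members, Selp and Ackr1 passed as higher and Sele did not pass. Ranges did not overlap for Icam1 and Vcam1, both higher in LPS+Tβ4, and for 51.1% of tested genes. Those of Sele, Selp, Ackr1 and Madcam1 did not overlap either and were higher in LPS+Tβ4, but their number adds no support to a rise. The 3 comparisons share their groups and are not independent. When libraries were scaled by their totals alone, higher genes made up 58.6% of all genes called in LPS against saline, 80.0% in LPS+Tβ4 against LPS and 68.9% in LPS+Tβ4 against saline, in place of 48.6%, 65.9% and 51.2%.

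**Figure D2:**
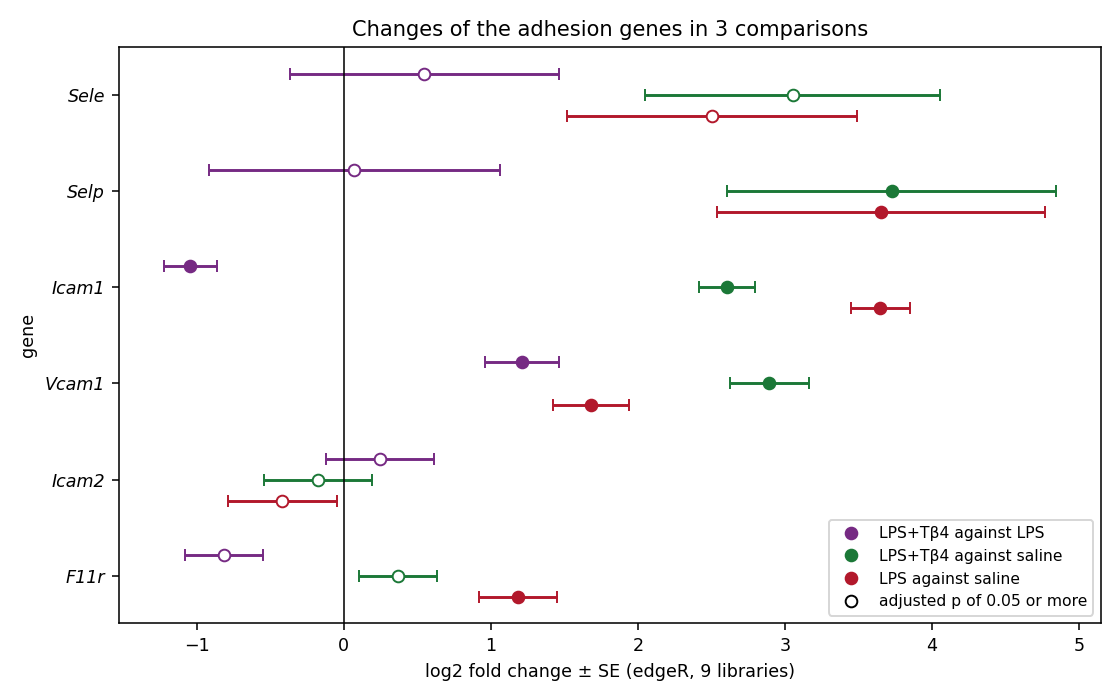
Log2 fold change (x axis) of 6 adhesion genes (y axis) in 3 comparisons, as estimates from edgeR with bars of ± 1 SE; filled points passed the adjusted threshold. Icam1 and Vcam1 lie on opposite sides of 0 in LPS+Tβ4 against LPS (-1.04 and 1.21), and neither Ackr1, with no count in saline, nor Madcam1, below the limit for testing, is drawn.

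Sele, Selp, Ackr1 and Madcam1 are genes of inflamed or mucosal vessels. In the authors' annotation (GRCm38), Sele (ENSMUSG00000026582) lies on chromosome 1 at 164048234 to 164057677, Selp (ENSMUSG00000026580) on chromosome 1 at 164115264 to 164150026, Ackr1 (ENSMUSG00000037872) on chromosome 1 at 173331886 to 173333750 and Madcam1 (ENSMUSG00000020310) on chromosome 10 at 79664559 to 79668537. Sele encodes E-selectin, which activated endothelium makes on demand to catch rolling leukocytes. It stood at 0.969, 0.899 and 1.40 FPKM in LPS+Tβ4 replicates 1, 2 and 3, 0.429, 0.901 and 0.747 FPKM in LPS, and 0, 0.113 and 0.225 FPKM in saline. Every treated library lay above every saline library, and the treated groups overlapped. The change was 2.51 ± 0.99 in LPS against saline (adjusted p = 0.07), 3.05 ± 1.00 in LPS+Tβ4 against saline (adjusted p = 0.058) and 0.55 ± 0.92 in LPS+Tβ4 against LPS (adjusted p = 0.76). Saline replicate 1 had no count, which allows up to 0.018 FPKM. Without it, Sele passed in LPS against saline (1.97, adjusted p = 0.026) and in LPS+Tβ4 against saline (2.53, adjusted p = 0.022). It also passed in LPS against saline without saline replicate 3 (3.58, adjusted p = 0.048). DESeq2 called both differences from saline as well (adjusted p = 0.017 and 0.0052).

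Selp encodes P-selectin, which endothelium and platelets store in granules and bring to the surface on activation. Its levels were 0.619, 0.573 and 2.63 FPKM in LPS+Tβ4, 0.986, 1.34 and 1.00 FPKM in LPS, and 0, 0.0695 and 0.164 FPKM in saline. LPS+Tβ4 replicate 3 stood alone at the top, while replicates 1 and 2 of that group lay below all LPS libraries. Selp rose in LPS (3.65 ± 1.12, adjusted p = 0.028) and in LPS+Tβ4 (3.73 ± 1.12, adjusted p = 0.042) against saline. Between LPS+Tβ4 and LPS the change was 0.07 ± 0.99 (adjusted p = 0.97), and without LPS+Tβ4 replicate 3 it was -0.91 (adjusted p = 0.61). In LPS the change missed the threshold without saline replicate 2 (3.55, adjusted p = 0.088) or LPS replicate 2 (3.52, adjusted p = 0.064). In LPS+Tβ4 it missed the threshold without saline replicate 2 (3.62, adjusted p = 0.13), LPS replicate 2 (3.79, adjusted p = 0.062) or LPS+Tβ4 replicate 1, 2 or 3 (4.02, 4.06 and 2.80, with adjusted p = 0.068, 0.055 and 0.11). Summed transcripts of 7 platelet genes were 4.62, 3.52 and 16.4 CPM in LPS+Tβ4, 11.7, 13.0 and 4.65 CPM in LPS and 6.47, 10.7 and 9.48 CPM in saline, and their part in Selp was not tested.

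Ackr1 encodes the atypical chemokine receptor DARC, which holds and moves chemokines on venular endothelium without signalling and is also carried by red cells. It had no count in any saline library, which allows up to 0.033 to 0.038 FPKM (counting error only). In LPS+Tβ4 it stood at 0.45, 0.939 and 2.57 FPKM, and in LPS at 0.519, 0.801 and 0.122 FPKM. With 3 counts, spread over the saline libraries together, taken as the floor (0.0186 CPM), Ackr1 was at least 102-fold higher in LPS+Tβ4 and at least 40.2-fold higher in LPS. The bound for LPS+Tβ4 was 58.9-fold without LPS+Tβ4 replicate 3, and 65.7-fold and 67.9-fold without saline replicate 2 or 3. That for LPS was 25.2-fold without LPS replicate 2, and 25.8-fold and 26.7-fold without saline replicate 2 or 3. Both differences passed (adjusted p = 0.0054 and 0.0053), and LPS+Tβ4 did not differ from LPS at the threshold (1.35 ± 0.80, adjusted p = 0.35). With limma on log2(FPKM + 1) the rise in LPS did not pass (0.54, adjusted p = 0.19). Ackr1 overlaps 493 bases of Cadm3, a neural adhesion gene on the same strand, so that reads there could be split between them. Cadm3 had 675, 884 and 907 counts in LPS+Tβ4, 569, 104 and 30 counts in LPS and 38, 82 and 64 counts in saline, where Ackr1 was at 0. Ackr1 had 45, 91 and 245 counts in the same LPS+Tβ4 libraries and 47, 68 and 12 counts in the LPS libraries. The part of Cadm3 reads in Ackr1 was not tested, nor was that of red cells, whose transcripts summed to 182 to 263 CPM in LPS+Tβ4, 536 to 707 CPM in LPS and 547 to 693 CPM in saline.

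Madcam1 encodes MAdCAM-1, the ligand of the gut-homing integrin α4β7 on mucosal venules. Its levels were 0.428, 0.12 and 0.484 FPKM in LPS+Tβ4, 0.908, 0.501 and 0.788 FPKM in LPS, and 0, 0.0598 and 0 FPKM in saline. The LPS libraries lay above those of both other groups, and the LPS+Tβ4 libraries above those of saline. The gene was below the limit for testing. With no filter (34310 genes fitted) it passed in LPS against saline (5.01 ± 1.14, adjusted p = 0.014), and not in LPS+Tβ4 against LPS (-1.17 ± 0.92, adjusted p = 0.54) or in LPS+Tβ4 against saline (3.83 ± 1.11, adjusted p = 0.062). With edgeR's own filter the last comparison passed (adjusted p = 0.046).

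Icam1 (ENSMUSG00000037405) encodes ICAM-1, the ligand of the leukocyte β2 integrins LFA-1 and Mac-1, on endothelium and on inflamed epithelium. It lies on chromosome 9 at 21015985 to 21028817 (GRCm38). Its levels were 17.9, 15.1 and 21.3 FPKM in LPS+Tβ4, 32.0, 34.0 and 40.1 FPKM in LPS, and 2.71, 2.48 and 2.47 FPKM in saline. The 3 groups were fully apart, with LPS at the top and LPS+Tβ4 between. Icam1 rose 12.5-fold in LPS against saline (3.65 ± 0.20, adjusted p = 3.3e-05) and 6.08-fold in LPS+Tβ4 against saline (2.60 ± 0.19, adjusted p = 0.00018). Against LPS it fell by 1.04 ± 0.18 (log2) in LPS+Tβ4 (adjusted p = 0.021), to 0.485 of the LPS level. The fall was not called without LPS replicate 2 (-1.05, adjusted p = 0.071), LPS+Tβ4 replicate 1 (-1.08, adjusted p = 0.066) or LPS+Tβ4 replicate 2 (-0.95, adjusted p = 0.1). Between urothelium-rich libraries (1 LPS+Tβ4, 2 LPS) the difference in log2 CPM was -0.75, and between poor libraries (2 LPS+Tβ4, 1 LPS) it was -1.39.

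Vcam1 (ENSMUSG00000027962) encodes VCAM-1, the ligand of the α4β1 integrin of monocytes and lymphocytes, on endothelium, on some macrophages and on injured proximal tubule cells. It lies on chromosome 3 at 116109949 to 116129688 (GRCm38). Its levels were 7.44, 6.52 and 4.90 FPKM in LPS+Tβ4, 2.22, 3.04 and 2.59 FPKM in LPS, and 0.753, 0.858 and 0.609 FPKM in saline. Again the 3 groups did not overlap, but here LPS+Tβ4 was at the top. Vcam1 rose 3.21-fold in LPS against saline (1.68 ± 0.26, adjusted p = 0.0014) and 7.43-fold in LPS+Tβ4 against saline (2.89 ± 0.27, adjusted p = 0.00041). LPS+Tβ4 exceeded LPS by 1.21 ± 0.25 on the log2 scale, or 2.32-fold (adjusted p = 0.033). Over 20 alternative settings the change ranged from 1.00 to 1.39, and the call was lost in 9, with adjusted p up to 0.13. Among these were the fits without saline replicate 1, 2 or 3 (adjusted p = 0.053, 0.058 and 0.054), LPS replicate 2 or 3 (0.073 and 0.067) or LPS+Tβ4 replicate 1 or 2 (0.1 and 0.13). The difference in log2 CPM was 0.78 between urothelium-rich libraries and 1.31 between poor ones.

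Transcripts of cells that can carry VCAM-1 were summed in the same libraries. Summed transcripts of 11 monocyte and macrophage genes were 141, 121 and 147 CPM in LPS+Tβ4, 87.8, 88.3 and 81.3 CPM in LPS and 118, 133 and 75.9 CPM in saline. None of the 9 tested members of that list passed in LPS+Tβ4 against LPS, where their median log2 change was 1.01. Injured tubule markers (11 genes) summed to 24200 to 35800 CPM in LPS+Tβ4, 18100 to 27000 CPM in LPS and 1370 to 1530 CPM in saline. None of the 11 passed in LPS+Tβ4 against LPS (median -0.29). Endothelial markers (15 genes) summed to 250, 295 and 511 CPM in LPS+Tβ4, 334, 565 and 269 CPM in LPS and 455 to 580 CPM in saline. Of these, 14 were tested. Against saline 4 fell and none rose in LPS+Tβ4 (median -0.80) and in LPS (median -0.41), where 11.8% and 22.2% of all tested genes were lower, and none passed between the treated groups (median -0.01). Neural transcripts were 519, 626 and 622 CPM in LPS+Tβ4, against 185, 118 and 31.4 CPM in LPS. The part of these cells in the level of Vcam1 was not tested.

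The ratio of Vcam1 to Icam1 within a library does not depend on how libraries are scaled. For every 100 FPKM of Icam1 there were 41.6, 43.3 and 23.0 FPKM of Vcam1 in LPS+Tβ4, 6.94, 8.94 and 6.45 in LPS, and 27.8, 34.6 and 24.7 in saline. LPS stood below both other groups, which overlapped. The log2 ratio of counts was -0.51 ± 0.51 in LPS+Tβ4 and -2.74 ± 0.25 in LPS (SD, n = 3 each), a difference of 2.23 or 4.69-fold (exact permutation test, 2-sided, p = 0.1). In saline it was -0.77 ± 0.25. The difference from saline was 0.26 for LPS+Tβ4 (exact permutation p = 0.5) and -1.97 for LPS (exact permutation p = 0.1). With 3 libraries against 3, no exact test can go below p = 0.1.

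**Figure D3:**
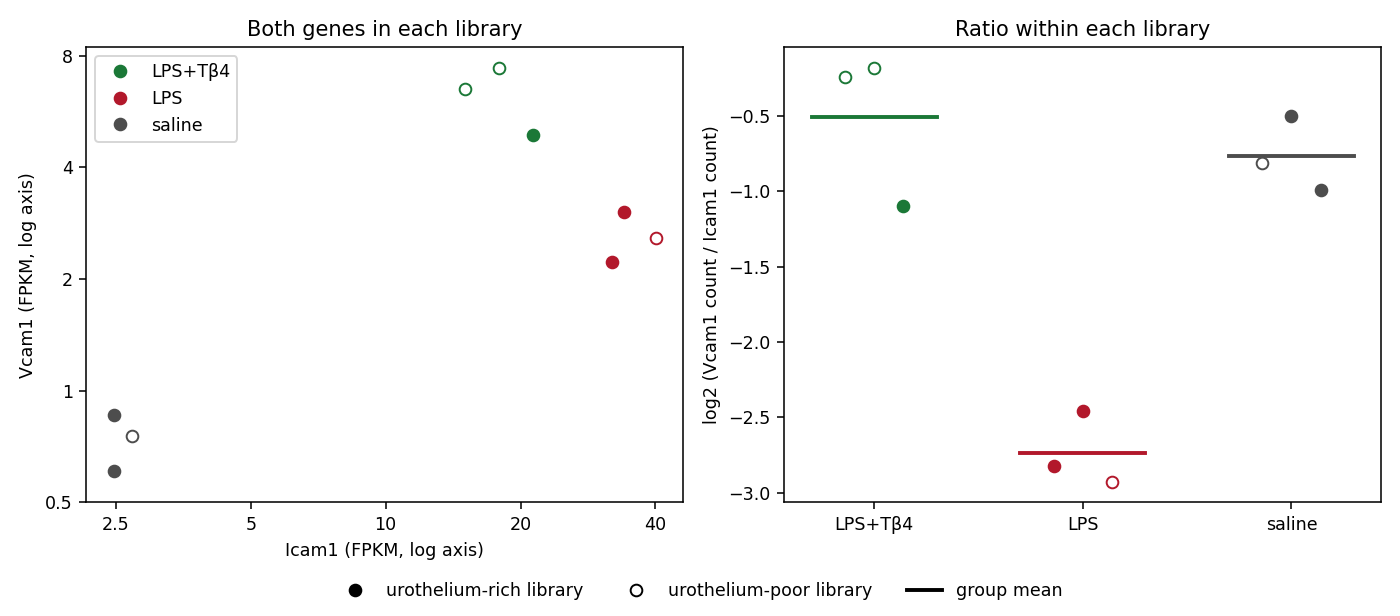
Left, Vcam1 against Icam1 in each library (FPKM, both axes logarithmic); right, log2 of the Vcam1 count over the Icam1 count in each library by group, with bars at the group means. The ratio lies between -2.93 and -2.46 in LPS and above -1.10 in every LPS+Tβ4 and saline library; filled points are urothelium-rich libraries.

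Icam2 (ENSMUSG00000001029, chromosome 11 at 106377656 to 106388075) encodes ICAM-2, an integrin ligand that resting endothelium and platelets carry. It stood at 1.30, 1.73 and 3.15 FPKM in LPS+Tβ4, 2.27, 1.84 and 0.894 FPKM in LPS, and 1.84, 1.85 and 2.21 FPKM in saline. All 3 groups overlapped. The change was -0.42 ± 0.37 in LPS against saline (adjusted p = 0.39), 0.25 ± 0.37 in LPS+Tβ4 against LPS (adjusted p = 0.73) and -0.17 ± 0.37 in LPS+Tβ4 against saline (adjusted p = 0.77). The last turned to 0.07 when libraries were scaled by their totals alone. The spread was wide in the treated groups, with the lowest value in a urothelium-poor library of each and the highest in a rich one. The coefficient of variation of Icam2 was 46.8% in LPS+Tβ4, 42.3% in LPS and 10.8% in saline.

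F11r (ENSMUSG00000038235) encodes JAM-A, a tight-junction protein of epithelium and endothelium that binds the integrin LFA-1, and was the most abundant member. It lies on chromosome 1 at 171437535 to 171464603 (GRCm38). Its levels were 31.5, 28.8 and 60.9 FPKM in LPS+Tβ4, 90.4, 70.5 and 44.5 FPKM in LPS, and 23.8, 29.1 and 27.0 FPKM in saline. LPS lay fully above saline, and LPS+Tβ4 overlapped both other groups. F11r rose in LPS against saline (1.18 ± 0.27, 2.27-fold, adjusted p = 0.0078). It did not pass in LPS+Tβ4 against LPS (-0.82 ± 0.27, adjusted p = 0.1) or in LPS+Tβ4 against saline (0.37 ± 0.26, adjusted p = 0.35). Within each treated group the urothelium-rich libraries were the higher ones, and proximal tubule transcripts were lowest in the library where F11r was highest. With a term for urothelial transcripts in the fit, F11r was lower in LPS+Tβ4 than in LPS (-0.67, adjusted p = 0.047) and higher in LPS+Tβ4 than in saline (0.55, adjusted p = 0.036). Without LPS+Tβ4 replicate 3 the difference from LPS was -1.17 (adjusted p = 0.029). Between LPS+Tβ4 and LPS, the difference in log2 CPM was -0.51 among rich libraries and -0.67 among poor ones.

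**Figure D4:**
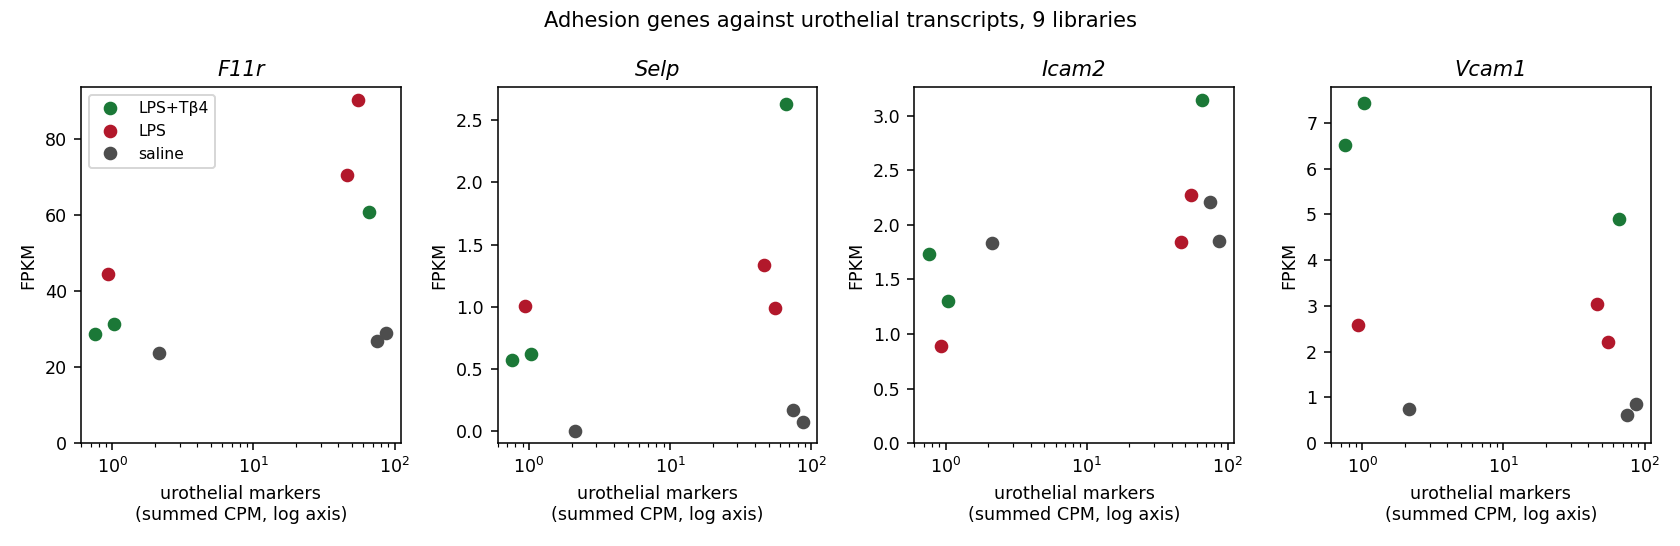
FPKM of F11r, Selp, Icam2 and Vcam1 (y axes) against the summed CPM of 5 urothelial genes (x axes, logarithmic) in the 9 libraries, coloured by group. In LPS+Tβ4 and LPS the rich libraries, at 46.2 to 65.9 CPM, hold the highest F11r and Icam2 values of their group, whereas saline libraries differ little in F11r (23.8 to 29.1 FPKM).

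Integrins and other leukocyte molecules bind these ligands. Of 13 counter-receptors, 8 were tested, and in LPS against saline 4 rose and 1 fell (median 0.72, against 0.02 for all tested genes, of which 20.9% were higher and 22.2% lower). Itgam, the α chain of Mac-1, which binds ICAM-1, averaged 2.13 ± 0.286 FPKM in LPS and 0.185 ± 0.0947 FPKM in saline (3.38 ± 0.43, adjusted p = 0.00059). Cd44, a hyaluronan receptor that also binds E-selectin, rose by 2.27 and Itgb1, the β1 integrin chain, by 0.94 (log2). Itga4, the α4 chain that binds VCAM-1, was lower (-0.60, adjusted p = 0.028). Against saline, 4 rose and none fell in LPS+Tβ4, among them Itgb2, the shared β2 chain (1.86, adjusted p = 0.0061). Itgam and Cd44, which rose in both treated groups, averaged 0.185 and 0.474 FPKM in saline. They met the limit for testing only through the treated groups, so their number adds no support to a rise. In LPS+Tβ4 against LPS none of the 8 passed (median 0.34), and Itgam stood at 5.53 ± 2.72 FPKM in LPS+Tβ4 and 2.13 ± 0.286 FPKM in LPS (1.28 ± 0.39, adjusted p = 0.087). Neutrophil transcripts (9 genes) summed to 96.1, 29.7 and 68.0 CPM in LPS+Tβ4, 26.5, 53.2 and 53.0 CPM in LPS and 1.86 to 3.27 CPM in saline. Of 7 tested neutrophil genes, 7 rose in LPS+Tβ4 and 6 in LPS against saline, where 12.3% and 20.9% of all tested genes were higher. None passed between the treated groups. In saline replicates 1, 2 and 3, 4, 3 and 2 of the 9 genes had no count. Such genes can meet the limit for testing through the treated groups alone. Lymphocyte transcripts (10 genes, none reaching the limit for testing) summed to 1.83 to 3.28 CPM in LPS+Tβ4, 0.921 to 2.08 CPM in LPS and 5.26 to 8.01 CPM in saline.

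Selectins read sugars that a set of enzymes builds. Of 11 such genes, 8 were tested, and in LPS against saline 4 rose and 2 fell (median 1.08), beside 20.9% higher and 22.2% lower over all tested genes. Gcnt1, which branches O-glycans, was 12.9 ± 4.69 FPKM in LPS and 98.8 ± 5.40 FPKM in saline (-3.13 ± 0.33, adjusted p = 0.00024). The galactosyltransferase B4galt1 and the tyrosylprotein sulfotransferase Tpst2 rose by 1.32 and 1.13, and the sialyltransferase St3gal3 fell by 1.07 (log2). Between the treated groups, St3gal3 rose in LPS+Tβ4 (0.88, adjusted p = 0.024) and the sulfotransferase Tpst1 fell there (-1.66, adjusted p = 0.023). Of all tested genes 4.5% were higher and 2.33% lower in LPS+Tβ4 against LPS. The call of Tpst1 was lost with only the 6 libraries compared fitted, where 3 of all tested genes were called, all higher. Whether St3gal3 kept its call in that fit is not reported here. In LPS+Tβ4 against saline 2 rose and 1 fell, Gcnt1 being lower (-1.96, adjusted p = 0.0033). Of all tested genes 12.3% were higher and 11.8% lower in that comparison. These enzymes act in leukocytes for this purpose, and the RNA here came from whole kidney.

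Of 13 other genes of junctions and leukocyte passage, all tested, 2 rose and 2 fell in LPS against saline, where 20.9% of all tested genes were higher and 22.2% lower. Cd47, a surface signal to phagocytes that also aids transmigration, was 44.0 ± 9.72 FPKM in LPS and 8.04 ± 1.07 FPKM in saline (2.29 ± 0.20, adjusted p = 0.00013). Cd34, a sialomucin of endothelium and progenitor cells, fell by 1.28 on the log2 scale. Cd99l2, a relative of the passage molecule CD99, fell by 0.63 and the tight-junction gene Ocln rose by 0.53. Over all tested genes 4.5% were higher and 2.33% lower in LPS+Tβ4 against LPS. Cd47 alone passed there, at 21.6 ± 4.55 FPKM in LPS+Tβ4 and 44.0 ± 9.72 FPKM in LPS (-1.08 ± 0.20, adjusted p = 0.023). That call was lost with only the 6 libraries compared fitted, where 0 of all tested genes were called lower. In LPS+Tβ4 against saline, where 12.3% of all tested genes were higher and 11.8% lower, 4 rose and none fell. These were Cd47 (1.21), Jam2 (1.28) and Jam3 (1.48), relatives of F11r, and Cldn5 (1.72), the claudin of tight endothelium. Neural transcripts, at 519 to 626 CPM in LPS+Tβ4 and 62.7 to 70.0 CPM in saline, were higher in the same group, and their part in Jam2, Jam3 and Cldn5 was not tested.

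Chemokines that ACKR1 holds rose against saline. Of 7 such genes, 6 were tested, and all 6 rose in LPS and in LPS+Tβ4 against saline, with medians of 5.87 and 5.24. Among all tested genes 20.9% and 12.3% passed as higher in these comparisons. In saline Cxcl5, Cxcl2 and Ccl2 averaged 0.169, 0.156 and 0.248 FPKM. They met the limit for testing only through the treated groups, so their number adds no support to a rise. Cxcl5, a neutrophil chemokine, was 35.5 ± 7.73 FPKM in LPS and 0.169 ± 0.0316 FPKM in saline, and Cxcl1, Cxcl2 and Ccl2 rose by 6.89, 7.03 and 4.84 (log2). In LPS+Tβ4 against LPS, Cxcl5 fell (-1.19 ± 0.22, adjusted p = 0.024), and the other 5 did not pass. Between these treated groups 2.33% of all tested genes were lower and 4.5% higher. Genes of NF-kB feedback, which NF-kB induces and which act back on it, rose against saline, 10 of 10 in LPS and in LPS+Tβ4, with medians of 2.44 and 2.14. The shares of higher genes among all tested were again 20.9% and 12.3%. Bcl3, Birc3, Tnfaip3 and Relb led in LPS, at 3.86, 3.85, 3.59 and 3.37. Between the treated groups Birc3 alone passed, at 13.3 ± 5.74 FPKM in LPS+Tβ4 and 29.3 ± 4.04 FPKM in LPS (-1.21 ± 0.25, adjusted p = 0.031), and the list median was -0.46. The falls of Cxcl5 and Birc3 were not called with only the 6 libraries compared fitted, where 0 of all tested genes were called lower.

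Among 11340 tested genes with a mean of at least 1 FPKM and a proper symbol, those most like each member over the 9 libraries were found by Pearson's r of log2(CPM + 0.5). The 9 points fall in 3 groups, so that a shared group difference alone gives a high r. Icam1 was most like Hip1r (0.997), Foxp4 (0.996) and Fyb2 (0.995). Vcam1 was most like H2-DMb2 and H2-DMb1 (0.984 each), 2 similar genes of antigen loading on MHC class II that can share reads, and Hfe (0.983). F11r was most like Morc3 (0.991), Armc10 (0.989) and Batf2 (0.988). Sele was most like Ms4a4c (0.970), Igsf6 and Apold1 (0.963 each), and Selp most like Lbp (0.962), Igsf6 (0.961) and Tmbim1 (0.957). C4b (0.946) and Acap3 (0.941) were among the 3 genes most like Ackr1, and Icam2 was most like Zfp827 (0.949), Gsta4 (0.948) and Elk3 (0.944). Among the members themselves, r was highest between Sele and Selp (0.920), 0.734 between Icam1 and Vcam1, and -0.474 between Icam1 and Icam2.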

How the data were processed

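Kidney RNA from 9 mice was sequenced as poly(A) libraries with strand-marking dUTP chemistry, per the labels' protocols. The submitters' processing notes name cutadapt 1.9, HISAT2 2.2.1, StringTie 2.1.6, DESeq2, edgeR and the build GRCm38. No source used here names the counting program, its strand setting or the release of the gene annotation. The authors deposited a count and an FPKM value per gene and library, and no per-sample column was left unused. Tests on these counts ran in R 4.3.3 with edgeR 4.0.16 (quasi-likelihood F test, TMM scaling, all 9 libraries, 1 mean per group), for genes with a mean of at least 0.5 FPKM. P-values were adjusted by Benjamini-Hochberg, and the SE is the absolute log2 change over the square root of F. Totals of 53.0 to 62.0 M counts set the counting precision, and a count of 0 was given a limit of 3 counts. Limits and floors cover counting error only.

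Alternatives used DESeq2 1.42.0, limma 3.58.1 on log2(FPKM + 1) or log2(FPKM + 0.1), other filters and scalings, a urothelial term, and leaving out each library. The differences within urothelium-rich and urothelium-poor libraries (split at a log2 CPM of 3), and the bounds on Ackr1 with a library left out, were chosen after seeing the data. Replicate numbers were not taken to pair the samples, and same-number deviations from the group means correlated at -0.63 to 0.26 over 9 pairs. Such deviations also follow other differences between libraries, so this check cannot exclude a pairing. The members and gene lists were chosen with earlier results of these data known. Named were all 8 members, up to 4 genes per pathway list with the smallest adjusted p in the comparison, and the 3 genes most like each tested member, of which 1 is not reported here. Marker lists were given as summed CPM. Sequences came from RefSeq (GRCm38.p6), and figures were drawn with matplotlib 3.10.9.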

Additional observations from a re-analysis of the deposited data

How the results depend on the processing

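Over 20 alternatives, Icam1, Vcam1 and F11r kept their calls in LPS against saline, and Icam1, Vcam1 and Ackr1 in LPS+Tβ4 against saline. The number of members called in LPS+Tβ4 against LPS, 2 as reported, was 0 with only the 6 libraries compared and 0 to 3 when 1 library was left out. The replicate numbers are not known to pair the samples, and with them as a replicate block the number called was 0, with adjusted p = 0.07 for Icam1 and 0.085 for Vcam1. Differences close to 0 changed sign. Selp in LPS+Tβ4 against LPS was 0.07 as reported, -0.002 and -0.126 with limma on log2(FPKM + 1) and log2(FPKM + 0.1), -0.31 with the replicate block, and -0.908 to 0.402 with 1 library left out. Icam2 in LPS+Tβ4 against LPS was -0.131 to 0.454 with 1 library left out. Icam2 in LPS+Tβ4 against saline was 0.067 with library totals alone, 0.003 with limma on log2(FPKM + 1), 0.025 with the urothelial term, and -0.494 to 0.037 with 1 library left out. Of all tested genes, 1025 were called in LPS+Tβ4 against LPS, 647 with no filter, 2442 with DESeq2, 3 with only the 6 libraries, 5 with the replicate block, and 68 (without LPS+Tβ4 replicate 2) to 2672 (without LPS replicate 1) with 1 library left out. In LPS+Tβ4 against saline 3617 were called, and 2119 to 4544 with 1 library left out. Higher genes were 77.4% of calls with no filter and 80.4% with limma on log2(FPKM + 0.1), in place of 65.9%, in LPS+Tβ4 against LPS. They were 100% of the few calls with only the 6 libraries or with the replicate block. Beyond the fewer libraries or wider set of genes that an alternative fits, the cause was not tested. Sele, Selp, Ackr1 and Madcam1 rest on 0 to 50 counts per saline library, which limits their folds.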
